A study of Mus musculus with 3 samples.

Results

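The genes of the protein phosphatase families in the mouse oocyte and zygote m5C lists were taken as every gene whose name in the lists begins with Ppp, Ppm1, Ptpn, Ptpr or Dusp. This rule uses names alone and no measured value. It gave 83 genes of the 8353 genes with a called m5C site at any stage, with 463 of the 40298 distinct sites. The serine/threonine phosphatases comprised 8 genes for catalytic subunits and 35 genes for regulatory subunits of the Ppp type, and 6 Ppm1 genes. The tyrosine phosphatases comprised 12 Ptpn genes (non-receptor type) and 13 Ptpr genes (receptor type). The 9 Dusp genes, which code for dual-specificity phosphatases, were kept as a class of their own. Regulatory subunits have no phosphatase activity themselves and are counted here by their names. Ppp4r3a and Ppp4r3b stood in the lists under the older names Smek1 and Smek2, so the rule left them out.

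m5C is cytosine with a methyl group on the fifth ring position. Bisulfite turns unmethylated cytosine into uracil, so that the share of reads with unconverted C at a position gives its m5C level. RNA bisulfite sequencing was performed in wild-type C57BL/6J mice on oocytes at the germinal vesicle stage (GV), held before meiotic maturation, on metaphase II (MII) oocytes, which are matured eggs, and on 1-cell embryos, with 1 library per stage. Females were 7 to 8 weeks old per the labels. GV oocytes were taken from minced ovaries 48 h after 10 IU of PMSG, a gonadotrophin that stimulates follicles. MII oocytes were taken from oviducts 12 h after 5 IU of hCG, a gonadotrophin that induces ovulation, which followed 10 IU of PMSG by 44 to 48 h. The 1-cell embryos came from females mated with C57BL/6J males, 24 h after 5 IU of hCG that followed 5 IU of PMSG. The study's methods give a different hCG dose for the MII oocytes, and a wider age range for the oocyte donors, than the labels do. All samples had the zona pellucida removed with hyaluronidase. The conversion conditions are described in other words for the oocytes than for the embryos, so that stage and library preparation cannot be told apart.

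With 1 library per stage no difference had a replicate check, and each test below compares 2 libraries, not 2 stages. The lists held 15910, 20694 and 24996 sites in the GV, MII and 1-cell libraries. The median coverage of a called site was 121, 107 and 58 reads, and the reads at called sites summed to 4475058, 5285011 and 2616279. Each list holds only sites with at least 20 reads, a level of at least 10% and at least 5 unconverted reads, so a site without a row may be unmethylated, below these limits or poorly covered. Of 12 oocyte marker genes, such as Gdf9 and Zp3, 6, 8 and 11 had a called site in the 3 libraries. Of 12 cumulus or granulosa cell markers 0, 2 and 0 had one; the MII sites were in Amh and Cyp19a1, with at most 96 reads. Of 6 sperm markers 1, 1 and 0 had one, and that gene was Prm2, with at most 43 reads. The part of such cells in the values below was not tested.

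Protein phosphatases remove phosphate from proteins and oppose kinases. In the Ppp type a few catalytic subunits (PP1, PP2A, calcineurin and PP4 to PP6) gain substrate and place from a large set of regulatory subunits, while Ppm1 enzymes depend on metal ions and mostly lack such subunits. Ptpn and Ptpr enzymes cut phosphate from tyrosine, inside the cell or as membrane receptors, and many Dusp enzymes switch off MAP kinases. In the oocyte, PP1 and PP2A oppose the kinases that drive meiotic resumption and hold chromosome cohesion, and their control at fertilization accompanies the exit from meiosis. In mRNA, m5C is written by NSUN2 at sites followed by G-rich sequence (Type I) and by NSUN6 at the motif CUCCA (Type II, defined here by CUCNA with the site at the first C). All other sites were counted here as Type I, whether or not G followed them.

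The sites that the results turn on are shown as 21 nt of the spliced transcript, 5′ to 3′, read from the GRCm38 genome with GENCODE M21 transcripts. Capitals mark the m5C site, which is the first capital, and the 4 bases after it. The first set is the 5 sites with the highest level among the phosphatase sites called at every stage, ranked by their level in the library where it was highest and with at least 50 reads in each, all of Type I in the coding sequence (CDS).
Dusp12 at chr1:170885153 (minus strand): uggacaaaccCGAGAccgacc
Ppp1r10 at chr17:35926486 (plus strand): ggcugagaccCGGGCugagga
Ppp2r1a at chr17:20958824 (plus strand): cagccucccaCAAGGucaaag
Ppp1r11 at chr17:36951438 (minus strand): caacgguuacCGAGAcaaccg
Dusp7 at chr9:106368916 (plus strand): ggaucuggguCCGGCgcaggc

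The second set is sites with the largest differences between libraries among those with at least 100 reads in both that passed the test given below. The last of them is the site that this test called lower in the 1-cell library than in the MII library.
Ppp1r9b at chr11:95005757 (plus strand): ucccugcccaCAGGGuccgua
Ppp1r15a at chr7:45523764 (minus strand): gaucaggaccCCGAGauuccu
Ptprf at chr4:118210486 (minus strand): ugggccgcacCGGUGuguuca
Ppp1cc at chr5:122169016 (plus strand): acuauguggaCAGGGgcaagc
Ppp6r1 at chr7:4646811 (minus strand): gguggucaauCGGAAgcuccu
Ppp1r3d at chr2:178413772 (minus strand): caucgaaaccCCAGGcuucgg
Ppp1r21 at chr17:88545357 (plus strand): cuugaggaaaCUGCAgcagga
Ppp1r3d at chr2:178413908 (minus strand): agguguuuaaCGCAGgcgacg

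The third set is the Type II sites of the coding sequence, whose capitals spell CUCCA.
Ppp1r15a at chr7:45524684 (minus strand): caggcucccaCUCCAgagccu
Ptprf at chr4:118236205 (minus strand): agcaggcaccCUCCAgcccuc
Ppp4c at chr7:126786195 (minus strand): guggcaucccCUCCAaaaagc
Ppp3cc at chr14:70289206 (minus strand): gcccucaguuCUCCAcgaccg
Ptpn23 at chr9:110388914 (minus strand): aaaaguggaaCUCCAcacuac
Ppp2r5a at chr1:191368714 (minus strand): cggacacuucCUCCAagugau

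In the 450 Type I phosphatase sites with a full window outside chromosome 18, G stood at 40.9% of the bases directly after the site, 64.2% of the second, 60.4% of the third and 54.7% of the fourth. The same shares over the 38608 Type I windows of all sites were 33.4%, 63.9%, 59.9% and 49.3%. The Type I phosphatase sites were thus rich in G at the same positions as the rest of the lists.

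Called sites in phosphatase genes numbered 191 in the GV library, 247 in the MII library and 273 in the 1-cell library, in 60, 73 and 66 genes. They made up 1.20% (95% Wilson interval 1.04 to 1.38), 1.19% (1.05 to 1.35) and 1.09% (0.971 to 1.23) of the lists. Intervals here and below cover counting error only, since PCR reads without molecular identifiers are not independent molecules and sites of 1 gene share reads. The count thus grew with the lists, and its share of them stayed within the intervals of the other stages. Serine/threonine phosphatase genes held 119, 136 and 175 sites in 35, 43 and 42 genes. Tyrosine phosphatase genes held 58, 87 and 65 sites in 19, 23 and 15 genes. Dusp genes held 14, 24 and 33 sites in 6, 7 and 9 genes. From MII to 1-cell the tyrosine class had fewer sites and genes, while the serine/threonine and Dusp classes had more sites. The exact Poisson intervals of the tyrosine counts, 69.7 to 107 in MII and 50.2 to 82.9 in 1-cell, overlapped. Regulatory Ppp subunits gave most sites at each stage, with 104, 117 and 139.

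**Figure D1:**
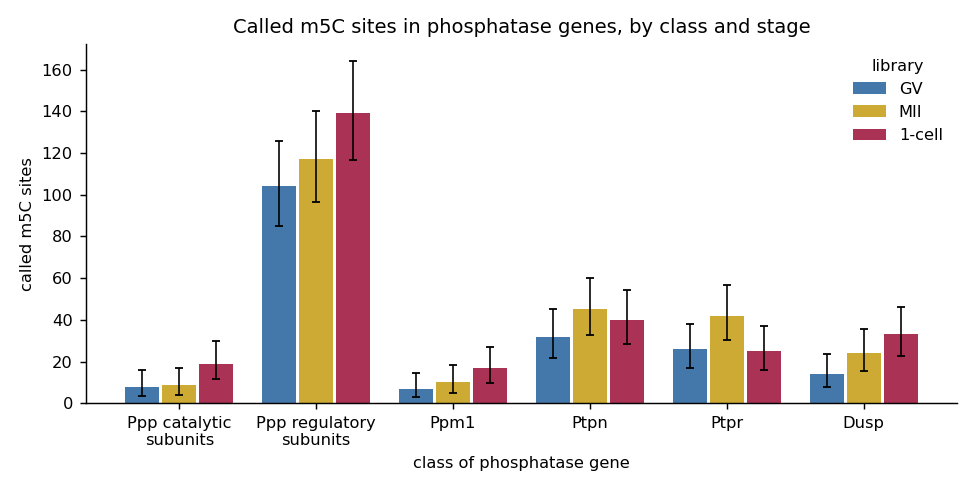
Number of called m5C sites (y axis) in the 6 classes of phosphatase genes (x axis) in the GV, MII and 1-cell libraries, with exact 95% Poisson intervals as error bars. Sites in Ppp catalytic subunits number 8, 9 and 19 and those in Ptpr genes 26, 42 and 25.

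Of 149 protein-coding genes that GENCODE M21 names in these families, 85 had a called site (57.0%), counting Ppp4r3a and Ppp4r3b, beside 36.5% of all 22028 protein-coding genes. The share was 8 of 11 for the Ppp catalytic subunits, 37 of 64 for the regulatory subunits, 6 of 12 for Ppm1, 12 of 17 for Ptpn, 13 of 21 for Ptpr and 9 of 24 for Dusp. Ppp2cb, Ppp3ca and Ppp3cb were the catalytic subunit genes without a called site. Genes with several sites were frequent: phosphatase genes had 3.18, 3.38 and 4.14 sites per gene in the 3 libraries, beside 2.605, 3.072 and 3.901 over all genes with a site. The gene with most sites was Ptpn11, which codes for the cytoplasmic tyrosine phosphatase SHP2, with 23 distinct sites, followed by Ppp1r10 with 18 and by Ppp2r5a, Ppp6r1 and Ptprf with 15 each.

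The sites lay in the CDS at 311 positions, in the 3′ untranslated region (UTR) at 81 and in the 5′ UTR at 71. The share in the 5′ UTR was 20.4% (Wilson interval 15.3 to 26.7) in GV and 19.0% (14.6 to 24.4) in MII, beside 11.2% and 11.3% of all sites, and 11.7% (8.43 to 16.1) in 1-cell beside 10.3%. In the oocyte libraries phosphatase sites thus lay more often upstream of the start codon than the sites of the lists as a whole. This difference was outside the counting interval but had no replicate check, and the interval does not allow for sites of the same gene. Of the 71 distinct 5′ UTR sites of the 3 libraries, Ppp2r5a held 7, Ppp6r1 6, and Ppp2ca and Ptpn9 5 each. Serine/threonine genes (19.3% and 21.3%) and tyrosine genes (22.4% and 16.1%) had like shares in GV and MII. In the MII library 35 of 42 Ptpr sites (83.3%, 69.4 to 91.7) were in the CDS against 24 of 45 Ptpn sites (53.3%, 39.1 to 67.1). The Ptpn sites outside the CDS came from Ptpn11, Ptpn4, Ptpn9 and Ptpn21 alone. The contrast thus rests on a few genes, and the intervals do not allow for sites of the same gene. Over the 3 libraries, 14 of the 23 distinct Ptpn11 sites lay in the 3′ UTR. Sites within 10 nt of another site of the same gene made up 14.3% (9.12 to 21.7), 13.2% (8.54 to 20.0) and 13.1% (8.92 to 19.0) of the serine/threonine sites in the 3 libraries, and 6.90% (2.71 to 16.4), 6.90% (3.20 to 14.2) and 3.08% (0.848 to 10.5) of the tyrosine sites. Over all sites the shares were 6.37%, 7.31% and 9.65%. An example are the adjacent Ppp6r1 sites at chr7:4640174, chr7:4640175 and chr7:4640176, which had levels of 13.3%, 15.6% and 16.1% in GV, 20.8%, 20.1% and 21.8% in MII and 26.0%, 24.7% and 25.7% in 1-cell.

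The median levels of the called sites had overlapping intervals in both main classes. The median level over serine/threonine sites was 19.0% (95% order-statistic interval 16.0 to 21.3) in GV, 20.4% (17.2 to 22.5) in MII and 24.1% (21.6 to 27.9) in 1-cell. Over tyrosine sites it was 20.9% (17.5 to 26.2), 18.3% (15.2 to 22.6) and 23.2% (18.03 to 28.1), and over Dusp sites 18.3% (12.7 to 29.2), 20.4% (11.6 to 29.0) and 23.3% (12.8 to 28.8). Over all sites the medians were 19.5%, 19.8% and 23.8%. The difference of the medians, serine/threonine minus tyrosine, was -1.96 points in GV, 2.09 points in MII and 0.924 points in 1-cell. With sites under 100 reads left out, this difference became -2.57, 4.76 and 9.10 points. Among sites with at least 50 reads the median of the phosphatase sites was 17.9% in GV, 18.5% in MII and 19.0% in 1-cell, and among those with at least 100 reads 18.04%, 18.87% and 22.39%, so the higher 1-cell median depended on the coverage minimum in no fixed direction. Levels of at least 50% were reached by 11.5%, 11.3% and 15.4% of phosphatase sites, beside 11.04%, 11.85% and 16.71% of all sites.

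**Figure D2:**
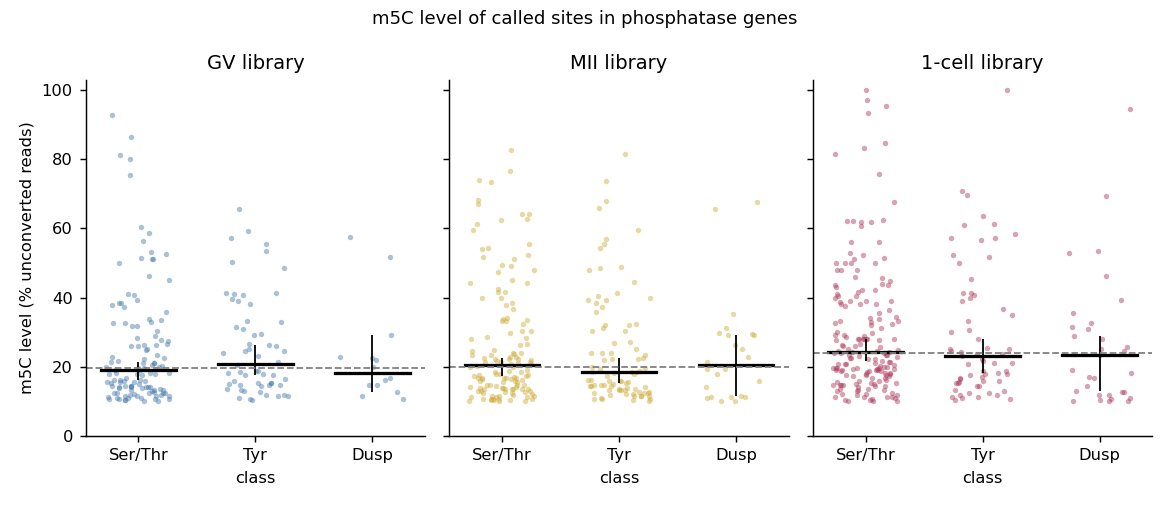
m5C level in percent of unconverted reads (y axis) of each called site in serine/threonine, tyrosine and Dusp genes (x axis), in a panel per library. Black bars are medians with 95% order-statistic intervals and the dashed line is the median of all sites, which was 19.5%, 19.8% and 23.8%. The median of each class is close to that line.

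Coverage depends on the amount of the transcript as well as on depth and on where reads fall. The median coverage of a site was 138, 123 and 53 reads in serine/threonine genes and 114.5, 100 and 49 reads in tyrosine genes, in the order of the stages, against 121, 107 and 58 over all sites. Dusp sites had 244.5, 153.5 and 90 reads. The tyrosine medians were thus the lowest of the 3 classes in each library, a difference that was not tested. In these bulk samples a lower amount of RNA per cell and fewer cells that hold the transcript cannot be told apart. Dusp7, a phosphatase of MAP kinases that is known to act in meiotic resumption of mouse oocytes, had the best covered phosphatase site of each library, at chr9:106369217 in the CDS, with 4735, 3985 and 1152 reads. Ptpn21, a cytoplasmic phosphatase with a FERM domain, was next in both oocyte libraries at chr12:98683484, with 2113 and 2466 reads, and had 141 reads there in the 1-cell library. Set against the median ratio of all shared sites, its coverage from MII to 1-cell was 0.17 times as large over its 2 shared sites. The next best covered genes were Ppp1r10 in GV (806 reads at a site), Ppp1r12a in MII (863 reads), and Ptpre (373 reads) and Ppp2r2d (314 reads) in 1-cell.

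Over the sites shared by 2 libraries, coverage of phosphatase sites followed that of the rest. Divided by the median ratio of all shared sites, the median coverage ratio was 1.01 (0.952 to 1.04) from GV to MII over 153 sites, 0.972 (0.852 to 1.11) from MII to 1-cell over 91 sites and 0.933 (0.848 to 1.05) from GV to 1-cell over 74 sites. For serine/threonine sites the ratio from MII to 1-cell was 0.976 (0.831 to 1.11) and for tyrosine sites 0.871 (0.457 to 1.65). From GV to 1-cell it was 0.957 (0.801 to 1.11) over 50 serine/threonine sites and 0.647 (0.297 to 2.02) over 14 tyrosine sites. These intervals include the ratio of all sites, and single sites ranged from 0.160 to 3.23 from MII to 1-cell. Smaller classes were lower from MII to 1-cell, with 0.478 over 3 Ppp catalytic sites and 0.664 over 4 Ptpr sites, too few for an interval.

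Many oocyte sites had no row in the 1-cell list, and the share was largest for Ptpr genes. Of 247 phosphatase sites of the MII list, 156 (63.2%, Wilson interval 57.0 to 68.9) had no row in the 1-cell list, beside 61.3% of all sites. The share was 57.4% (49.0 to 65.4) for serine/threonine sites, 78.2% (68.4 to 85.6) for tyrosine sites and 41.7% (24.5 to 61.2) for Dusp sites. Among tyrosine sites it was 30 of 45 (66.7%, 52.1 to 78.6) for Ptpn genes and 38 of 42 (90.5%, 77.9 to 96.2) for Ptpr genes. From the GV list 24 of 26 Ptpr sites (92.3%, 75.9 to 97.9) and 69 of 119 serine/threonine sites (58.0%, 49.0 to 66.5) had no row in the 1-cell list. The Ptpr share lay above the interval of the serine/threonine sites for both oocyte lists, but sites of 1 gene are not independent, the classes were not tested against each other, and Ptprf, Ptprg and Ptprt held 12, 9 and 8 distinct sites of this kind. Coverage limits these shares: multiplied by 0.318, the median coverage ratio from MII to 1-cell, 13 of the 38 Ptpr sites, 30 of the 78 serine/threonine sites and 45.8% of all sites without a row would have had under 20 reads. The 4 Ptpr sites shared by MII and 1-cell had a median coverage ratio of 0.211, below that of all sites. The count of 13 can thus be too low for Ptpr. The rest could have had 20 reads at the ratio of all sites, and whether they lost coverage or level was not tested.

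**Figure D3:**
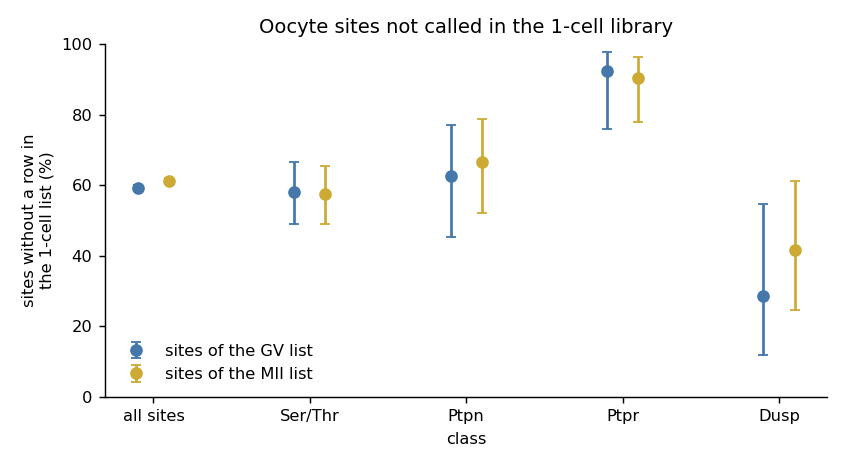
Share of the sites of the GV list and of the MII list that had no row in the 1-cell list (y axis, percent) for all sites and for 4 classes of phosphatase genes (x axis), with 95% Wilson intervals. The Ptpr share is 92.3% of GV sites and 90.5% of MII sites, against 59.3% and 61.3% of all sites.

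In turn, 178 of 273 phosphatase sites of the 1-cell list (65.2%, 59.4 to 70.6) had a row in no oocyte list, beside 66.6% of all sites. The share was 64.6% (57.2 to 71.3) for serine/threonine and 70.8% (58.8 to 80.4) for tyrosine genes. Among the latter it was 25 of 40 sites (62.5%, 47.0 to 75.8) for Ptpn and 21 of 25 (84.0%, 65.4 to 93.6) for Ptpr genes. The Ptpr sites thus differed between the oocyte and 1-cell lists in both directions. At the level of genes, 17 of 83 phosphatase genes (20.5%) had sites in an oocyte library and none in the 1-cell library, beside 23.3% of all 8353 genes. These were 10 tyrosine genes (Ptpn1, Ptpn12, Ptpn18, Ptpn22, Ptpn3, Ptpn4, Ptprm, Ptprn, Ptprn2 and Ptprt) and 7 serine/threonine genes (Ppm1m, Ppp1r12a, Ppp1r2, Ppp1r9a, Ppp2r1b, Ppp2r5e and Ppp6c). Genes with sites in the 1-cell library alone numbered 8 (9.64%, beside 13.6% of all genes), namely Dusp14, Dusp16, Ppm1e, Ppp1r12c, Ppp3cc, Ppp3r1, Ptprb and Ptpru. The catalytic and the regulatory subunit of calcineurin, Ppp3cc and Ppp3r1, were both among them. At every stage 47 phosphatase genes (56.6%, beside 53.9% of all genes) had a called site, which were 30 of the 49 serine/threonine genes, 11 of the 25 tyrosine genes and 6 of the 9 Dusp genes.

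Levels at shared sites were compared with Fisher's exact test (two-sided) on unconverted and converted reads, adjusted by Benjamini-Hochberg over all shared sites of the pair and called at an adjusted p under 0.05. From GV to MII, 26 of 153 shared phosphatase sites (17.0%) were higher in MII and 0 lower, beside 19.6% and 0.965% of all 12954 shared sites. An unadjusted p under 0.05 was found at 45 of the 153 phosphatase sites, beside 3996 of all 12954. From MII to 1-cell, 37 of 91 (40.7%) were higher and 2 (2.198%) lower, beside 51.3% and 2.45% of all 8015. From GV to 1-cell, 40 of 74 (54.1%) were higher and 0 lower, beside 66.1% and 1.05% of all 6478. An unadjusted p under 0.05 was found at 42 of these 74 sites, beside 4515 of all 6478. From MII to 1-cell it was found at 42 of 91, beside 4650 of all 8015. The phosphatase sites thus went the way of the lists as a whole, with a share of higher sites below the background in each pair. Dividing the reads by 5, as a guard against duplicate reads, left 0, 3 and 8 higher sites in the order above.

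The median difference at shared sites was 5.60 points (3.79 to 6.44) from GV to MII, beside 4.87 over all sites, 10.3 points (6.62 to 13.0) from MII to 1-cell, beside 12.7, and 13.2 points (9.79 to 18.9) from GV to 1-cell, beside 19.2. From MII to 1-cell it was 6.62 points at a coverage of at least 50 reads in both libraries and 5.38 points at 100. Serine/threonine sites differed by 4.54 (3.23 to 6.19), 11.2 (8.09 to 15.3) and 13.6 (9.58 to 20.96) points, and tyrosine sites by 6.47 (3.17 to 7.67), 8.48 (-0.231 to 20.6) and 9.65 (-0.469 to 29.9) points. From MII to 1-cell 28 of 58 serine/threonine sites (48.3%) and 4 of 19 tyrosine sites (21.1%) were higher. The median coverage of these tyrosine sites in the 1-cell library was 30 reads, against 74 reads for the serine/threonine sites, so a difference of the same size was less detectable there. Among 13, 14 and 10 shared Dusp sites, 5, 5 and 7 were higher, beside 19.6%, 51.3% and 66.1% of all shared sites. Dusp7 gave 3, 4 and 4 of these and Dusp12 2, 1 and 2. In the earlier library of each pair the Dusp sites had a median coverage of 302, 456.5 and 488.5 reads. Over all shared sites it was 151, 240 and 272 reads, so a difference of the same size was more detectable at Dusp sites.

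At every stage 70 phosphatase sites were called. Their median level was 18.9% in GV, 24.2% in MII and 38.6% in 1-cell. Of the 70, 62 had a higher level in 1-cell than in GV, beside 5545 of the 6145 sites of all genes. A listed site needs at least 5 unconverted reads, so one with few reads is listed only at a higher level. With the lower 1-cell coverage, a set of sites shared with that list thus favours higher 1-cell levels. How much this added to the differences here and in the pairs above was not tested. The level was higher at both steps at 44 of 70 sites (62.9%, Wilson interval 51.2 to 73.2) and lower at both at 0, beside 67.4% and 1.82% of the 6145 sites of all genes. Both steps up were seen at 29 of 46 serine/threonine sites, 8 of 14 tyrosine sites and 7 of 10 Dusp sites.

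**Figure D4:**
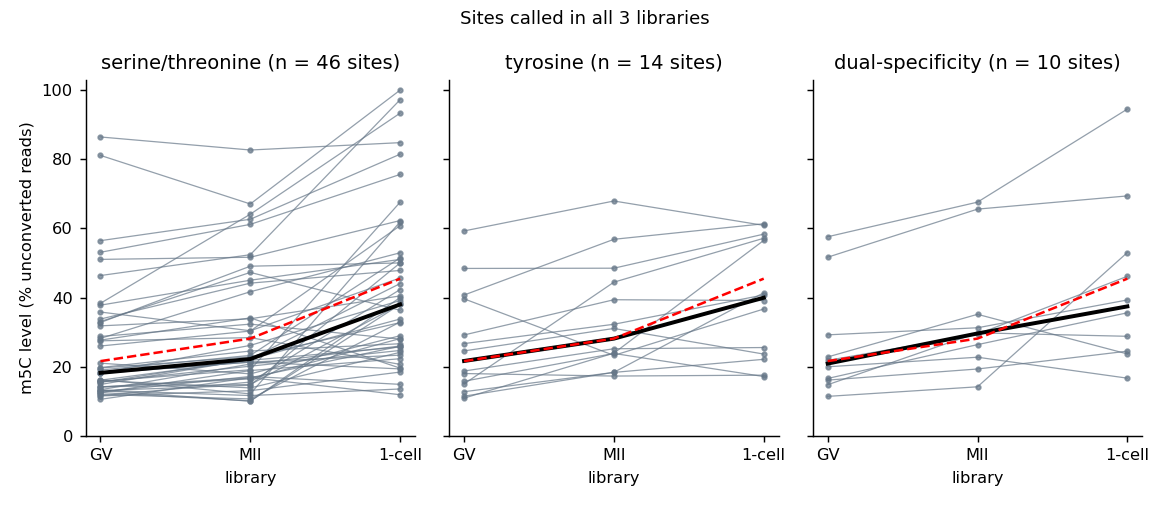
m5C level in percent of unconverted reads (y axis) of the 70 phosphatase sites called in all 3 libraries (x axis), with a gray line per site and a panel per class. The black line is the class median and the dashed red line the median of all 6145 such sites, which was 21.6%, 28.1% and 45.4%. Most lines are higher in the 1-cell library than in the GV library.

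Among the catalytic subunits of PP1, Ppp1cc had 2 sites, both called at every stage. The site at chr5:122169016 in exon 3 of the CDS had 78 of 238 reads unconverted in GV (32.8%), 104 of 212 in MII (49.1%) and 15 of 30 in 1-cell (50%). It was 16.3 points higher in MII than in GV (adjusted exact p = 0.00492), and the 1-cell value was within counting error of MII. The converted bases around this site are shared with Ppp1ccb and the gene models Gm9231 and Gm9315, so the gene of origin of its reads is uncertain. The site 25 nt upstream of the Ppp1cc start codon had levels of 13.2%, 10.0% and 40.0% at 76, 70 and 20 reads. The last value was higher than in MII (adjusted exact p = 0.009) and GV (adjusted exact p = 0.0176), but rested on 8 unconverted reads, and its bases are shared with Ppp1ccb too. Ppp1ca had 1 of 4 sites called at every stage, at chr19:4195029, with 18.2%, 21.3% and 19.4% at 384, 408 and 62 reads, a level that did not pass the test in any pair. Ppp1cb had 1 site in MII (16.7% of 30 reads) and another in 1-cell (20.0% of 30 reads).

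Ppp2ca, the main catalytic subunit of PP2A, had 9 sites, the most of any catalytic subunit, and 6 of them were called in the 1-cell library alone. Of these, chr11:52120941 (43.6% of 55 reads) and chr11:52118722 (40.5% of 74 reads) in the CDS had the highest levels. In the oocyte its sites all lay in the 5′ UTR: at chr11:52098682 the level was 50% of 26 reads in GV and 40.0% of 30 reads in MII, and at chr11:52098907 it was 10.6% of 218 reads in GV and 18.8% of 64 reads in 1-cell. Called sites in its CDS were found in the 1-cell library alone. Ppp5c had 4 sites in the CDS: those at chr7:17006909 and chr7:17006925 were at 12.3% and 11.5% in GV, and the former at 18.5% in MII, while the 1-cell library had other positions, chr7:17015444 (48.0% of 25 reads) and chr7:17015451 (29.2% of 24 reads). Ppp3cc, a catalytic subunit of calcineurin, had 3 sites in the 1-cell library, with levels of 18.9% to 27.7% at 37 to 47 reads. Ppp4c had a Type II site in MII (13.6% of 162 reads) and a Type I site in 1-cell (20.7% of 29 reads). Ppp6c had 1 site, in MII, at 10.3% of 78 reads. The median coverage of catalytic subunit sites was 134 reads in GV, 92 in MII and 47 in 1-cell, beside 121, 107 and 58 over all sites, and 15 of their 19 sites in the 1-cell list had no row in the oocyte lists.

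Of the PP1 regulators, Ppp1r10, a nuclear scaffold also known as PNUTS, held 18 sites, all in the CDS. At chr17:35926486 in exon 8 it had the highest level of the sites called at every stage in both oocyte libraries, 86.4% in GV (510 of 590 reads), 82.7% in MII (353 of 427) and 84.8% in 1-cell (106 of 125), which did not pass the test in any pair. Its other sites called at every stage were at 12.0% to 27.5% in GV. Of these, 4 were higher in 1-cell than in GV, such as chr17:35928732 with 19.6%, 22.8% and 32.7% at 806, 543 and 168 reads (GV to 1-cell, adjusted exact p = 6.60e-04). In the 1-cell library 9 further sites were called, with levels of 11.1% to 39.1%. Ppp1r11, a PP1 inhibitor, had 53.1% of 518 reads, 61.2% of 484 and 75.6% of 123 at chr17:36951438 in the order of the stages. It was 22.5 points higher in 1-cell than in GV (adjusted exact p = 1.23e-05).

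Ppp1r15a, also called GADD34, which leads PP1 to the translation factor eIF2α, carried the Type II site with the highest level in the 1-cell library. In both oocyte libraries the Type II site of Ptprf, given below, had a higher level. At chr7:45524684 it had 121 of 261 reads unconverted in GV (46.4%), 121 of 231 in MII (52.4%) and 35 of 36 in 1-cell (97.2%). The difference from MII to 1-cell was 44.8 points (adjusted exact p = 1.77e-07), whereas GV and MII did not differ beyond counting error (adjusted exact p = 0.429). A Type I site of the same exon, chr7:45523764, was at 51.1% of 184 reads in GV and 68.2% of 129 reads in MII (adjusted exact p = 0.0173) and had no row in the 1-cell list. Ppp1r9b, or spinophilin, had the next largest rise from GV to MII among sites with at least 100 reads in both after Ppp2r2b, at chr11:95005757 in the 3′ UTR, with 31.8% (34 of 107) in GV and 53.9% (55 of 102) in MII (adjusted exact p = 0.0102).

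Ppp1r3d, a glycogen-targeting subunit, had sites that went in opposite directions within the same exon. At chr2:178413772 the level was 19.0% of 389 reads in GV, 23.3% of 473 in MII and 51.4% of 138 in 1-cell, 28.2 points higher in 1-cell than in MII (adjusted exact p = 7.47e-09). At chr2:178413908 it was 33.1% of 357 reads, 47.3% of 457 and 36.3% of 190, which was 14.2 points higher in MII than in GV (adjusted exact p = 6.08e-04) and lower by 10.9 points in 1-cell than in MII (adjusted exact p = 0.0241). The site chr7:19532735 of Ppp1r37 had 34.1% of 384 reads in MII and 19.6% of 92 in 1-cell (adjusted exact p = 0.0178). These 2 sites were the only ones called lower in 1-cell than in MII, and the Ppp1r37 site is named after its value was seen. Of the 91 phosphatase sites shared by these libraries, 16 had a lower level in 1-cell, called or not. Ppp1r21, an endosomal PP1 partner, went from 15.4% of 259 reads and 22.3% of 211 to 44.0% of 109 at chr17:88545357 (MII to 1-cell, adjusted exact p = 3.33e-04). Ppp1r12a, the targeting subunit of myosin phosphatase, had 4 sites in the MII library at 10.4% to 14.6%, of which 3 had 665 to 863 reads. In GV 1 of them was called, at 10.2% of 576 reads, and in 1-cell none.

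The PP2A scaffold Ppp2r1a had 8 sites, all of them called in 1-cell and 2 at every stage. At chr17:20958824 in exon 7 its level was 56.4% (359 of 636 reads), 62.6% (394 of 629) and 81.5% (123 of 151), and the 1-cell value was 18.8 points above MII (adjusted exact p = 2.74e-05). The largest rise from GV to MII among sites with at least 100 reads in both was in Ppp2r2b, a B-type subunit of PP2A on chromosome 18, with 38.3% of 180 reads and 64.1% of 117 (adjusted exact p = 2.85e-04), followed by 93.3% of 30 in 1-cell. Ppp2r2d, the B-type subunit known for its action on substrates of mitotic kinase, had lower levels at high coverage: 12.5% of 648 reads, 18.9% of 567 and 22.3% of 314 at chr7:138868461. MII was higher than GV there (adjusted exact p = 0.0168), and the converted bases of this site are shared with the gene model Gm7571. Ppp2r5a, a B56-type subunit, held 15 sites of which 7 were in the 5′ UTR. The converted bases at chr1:191368714 (Type II), chr1:191396320 and chr1:191396341 are shared with gene models (Gm13142, Gm13169, Gm13233 or Gm13244). The gene of origin of the reads at these positions is thus uncertain. The Ppp2r5a site chr1:191352262 in the 3′ UTR had 81.1% of 90 reads, 67.1% of 85 and 100% of 27. All 4 Ppp2r5a sites called at every stage were higher in 1-cell than in MII. Ppp6r1, a regulatory subunit of PP6, held 15 sites. At chr7:4646811 it had 26.0% of 308 reads, 30.3% of 264 and 60.8% of 102, the largest rise from MII to 1-cell among sites with at least 100 reads (30.5 points, adjusted exact p = 1.11e-06).

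The Ppm1 genes had 28 sites and none at every stage. Ppm1h held 13, of which 7 were in the 1-cell list alone, with levels of 11.3% to 50%. Ppm1d, also called WIP1, had 4 sites in the 1-cell library, in exon 1 of its CDS, at 10.3% to 32.4%, and 1 site in the oocyte libraries, in the 5′ UTR, at 21.3% of 47 reads and 33.3% of 36. Ppm1m had 4 sites in the GV library alone, at 27 or 28 reads, and 3 of them were adjacent (chr9:106199111 to chr9:106199113) with levels of 92.9%, 40.7% and 39.3%.

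**Figure D5:**
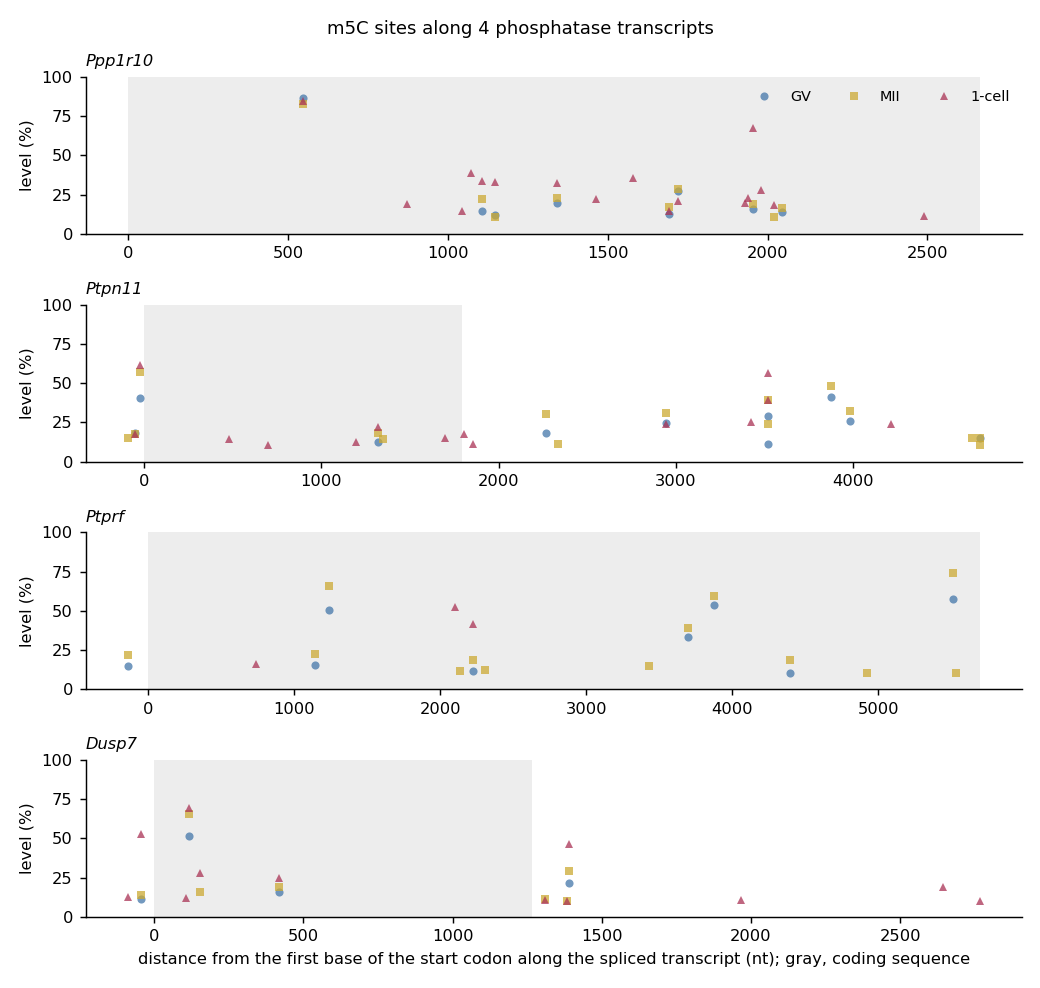
m5C level in percent (y axis) of the sites of Ppp1r10, Ptpn11, Ptprf and Dusp7 against the distance from the first base of the start codon along the spliced transcript in nt (x axis), for the GV, MII and 1-cell libraries. Gray marks the coding sequence. Of the 15 Ptprf sites 3 have a 1-cell value, and 14 of the 23 Ptpn11 sites lie past the coding sequence.

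Of the tyrosine phosphatases, Ptpn11 had 10, 15 and 14 sites in the 3 libraries, with 6 called at every stage. At chr5:121191237 in its 5′ UTR the level was 40.7% of 221 reads, 56.8% of 190 and 61.3% of 75. Its 8 sites of the 1-cell list alone had levels of 10.2% to 25% and lay in the CDS or the 3′ UTR. Ptpn21 had 2 sites at every stage: chr12:98683484 went from 18.7% of 2113 reads to 25.2% of 2466 in MII (adjusted exact p = 5.63e-06) and was at 25.5% of 141 in 1-cell, and chr12:98678415 had 15.8%, 23.8% and 17.1% at 1445, 1373 and 70 reads. Ptpn23, which acts in endosomal sorting, had 12 sites, all in the CDS, of which 6 were in the 1-cell list alone and 1 of these was Type II (chr9:110388914, 20.97% of 62 reads). Ptpn1, or PTP1B, a phosphatase of the insulin receptor, had 4 sites in the oocyte lists at 11.4% to 21.3% and none in the 1-cell list.

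Among receptor-type genes, Ptprf, or LAR, had 8 sites in GV, 13 in MII and 3 in 1-cell. Its site chr4:118210486 in exon 32 had 130 of 227 reads unconverted in GV (57.3%) and 138 of 187 in MII (73.8%; adjusted exact p = 0.00565). Its Type II site chr4:118236205 in exon 9 had 50.3% of 298 reads and 65.8% of 266 (adjusted exact p = 0.00257). Neither had a row in the 1-cell list, where the shared Ptprf site chr4:118230784 had 29 reads against 305 in MII, 0.299 times the median coverage ratio of all shared sites. Its level there was 41.4%, against 11.5% in GV and 18.4% in MII. Ptprg had 6, 9 and 1 sites and Ptprt 4, 7 and 0, the former at 44 to 335 reads and the latter at 20 to 64 reads in MII. Ptprr showed the opposite pattern, with 1, 2 and 5 sites, all at levels of 10.5% to 18.03%. The receptor-type genes were therefore mixed: Ptpra, Ptprb, Ptpre, Ptprj, Ptprr, Ptprs and Ptpru had more sites in 1-cell than in either oocyte list, and Ptprf, Ptprg, Ptprm, Ptprn, Ptprn2 and Ptprt had fewer than in MII.

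Dusp7 had 12 sites, all called in 1-cell, 4 at every stage. At chr9:106368916 in the CDS the level was 51.7% of 302 reads, 65.6% of 273 and 69.4% of 196, and at the best covered site, chr9:106369217, 16.1% (763 of 4735), 19.3% (770 of 3985) and 24.5% (282 of 1152). The latter was higher at each step (adjusted exact p = 0.00121 and 6.13e-04). Dusp12 had the highest 1-cell level among sites called at every stage with at least 50 reads: at chr1:170885153 in exon 1 it had 57.6% of 620 reads, 67.6% of 503 and 94.5% of 164, and was higher at each step (adjusted exact p = 0.00593 and 1.26e-12). The neighbouring site chr1:170885186 had 14.8% of 535 reads, 29.8% of 433 and 28.8% of 139. These positions overlap exons of Gm26620, a gene on the opposite strand. Dusp18 had 8 sites, 6 of them in the oocyte lists alone, with at most 67 reads each.

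Type II sites were few. They numbered 11 of the 463 distinct sites, 7 in serine/threonine, 2 in tyrosine and 2 in Dusp genes, and all carried CUCCA. Their share was 3.14% (Wilson interval 1.45 to 6.68) in GV, 2.43% (1.12 to 5.20) in MII and 1.83% (0.785 to 4.22) in 1-cell, beside 5.91%, 5.03% and 3.44% of all sites. The Ppp1r15a site was the 1 Type II phosphatase site called at every stage.

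The deposited p-values come from a test against the unconverted rate of each gene, and this rate was recovered from them. Its median over phosphatase genes was 0.324% in GV, 0.430% in MII and 0.349% in 1-cell, beside 0.264%, 0.367% and 0.354% over all genes. It was 0.343%, 0.474% and 0.371% for serine/threonine genes and 0.299%, 0.351% and 0.248% for tyrosine genes. The highest rates were 1.87% in GV and 2.88% in 1-cell, both in Ppp4r1, a PP4 regulator with 3 sites at 24 to 132 reads.

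Phosphatases outside these families and partners of PP1, PP2A and calcineurin were listed apart. Of all protein-coding genes 36.5% had a called site. Of 40 other phosphatase genes 26 had a called site, with 38, 51 and 65 sites and median levels of 19.2%, 20.0% and 22.2% in the order of the stages. Of their shared sites 2 of 31 were higher from GV to MII, 6 of 11 from MII to 1-cell and 7 of 9 from GV to 1-cell, and 0 lower in each. Over all shared sites 19.6%, 51.3% and 66.1% were higher and 0.965%, 2.45% and 1.05% lower in these pairs. Cdc25a, which activates cyclin-dependent kinases, had 3, 5 and 9 sites and Pptc7, a mitochondrial phosphatase, 2, 4 and 11. Of 25 partner genes 20 had a called site, with 45, 65 and 87 sites and median levels of 16.7%, 18.5% and 23.1%. Of their shared sites 14 of 39, 15 of 32 and 17 of 29 were higher and 0, 0 and 1 lower, beside the same shares of all sites. Mastl, the kinase that restrains PP2A in meiosis, had 1, 5 and 7 sites, its substrate Ensa 1, 2 and 4, and Cabin1, a calcineurin inhibitor, 10, 14 and 17.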

How the data were processed

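RNA bisulfite sequencing of mouse GV oocytes, MII oocytes and 1-cell embryos was analysed, with 1 library per stage. The authors trimmed reads with cutadapt 1.13 and Trimmomatic 0.36, mapped them with HISAT2 2.10 and Bowtie2 2.2.9 (SAMtools also named; versions per the submitters' processing notes), and called sites with base quality of at least 30. The submitters' processing notes name mm10, and for the oocytes GRCh37 too. The labels name polyadenylated RNA and the methods RNA depleted of ribosomal RNA. The authors deposited the coverage of a site as a count of reads without normalization, the m5C level as a fraction, given here in percent, and a p-value of a one-sided binomial test, used here to recover the unconverted rate of a gene.

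Unconverted reads were level times coverage, whole to within 2.90e-05. The 83 genes, lists and classes were chosen with earlier results of these data known. Sites were placed on GENCODE M21 transcripts (Ensembl 96; the authors used Ensembl 87) with CDS before UTR; no phosphatase site lay on a scaffold. Levels of shared sites were compared with Fisher's exact test, Benjamini-Hochberg adjusted over all shared sites, which was tested on simulated data. Intervals are 95% (Wilson, exact Poisson, order statistics). No test was made between classes, since sites are not replicates. A site counted as shared with a copy where 31 converted bases around it occur in another gene (14 sites, 8 genes). Computations used scipy 1.17.1 with pandas 2.3.3 and numpy 2.4.6 under Python 3.11.15; sequences were read with samtools 1.23.1 or pysam 0.24.0, and plots drawn with matplotlib 3.10.9.

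Named were, per pair of libraries, the 5 largest rises and falls past an adjusted p of 0.05 with at least 100 reads in both; per class the 3 genes with most sites, the gene with most sites in 1-cell alone and that with most oocyte sites and none in 1-cell; all catalytic subunits; the 5 sites of highest level called at every stage with at least 50 reads; Type II sites called at every stage; and the 3 best covered genes per library. Ppp4r1, Ppp1r37 and the genes named from the other lists were chosen after their values were seen. Alternatives were higher coverage or level minimums, thinning to 20 reads, reads divided by 5, Bonferroni adjustment, Dusp with the tyrosine class, CUCCA alone and another coverage scaling.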

Additional observations from a re-analysis of the deposited data

How the results depend on the processing

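Of the recomputed values that answer a comparison, 50 were rated as kept and 31 as moved. Medians were rated by their intervals, but counts by a fixed fold limit that can be wider than the interval. For example, 157 GV sites at a coverage of at least 50 reads were rated as kept beside 191, whose Poisson interval was 165 to 220. A coverage of at least 50 reads left 157 phosphatase sites in 42 genes in the 1-cell list, with a median level of 18.97%. A coverage of at least 100 reads left 112 sites in GV, 137 in MII and 64 in 1-cell, with 43 genes in MII and 26 in 1-cell. A level of at least 20% left 92, 120 and 166 sites with medians of 32.7%, 33.3% and 33.6%, which follows from the limit. The counts of higher sites from GV to MII were 4 with Bonferroni adjustment and 0 with reads divided by 5 or thinned to 20 reads. From MII to 1-cell they were 15 with Bonferroni, 22 and 14 at a coverage of at least 50 and 100, 3 with reads divided by 5 and 5 when thinned. From GV to 1-cell they were 16, 26, 17, 8 and 8 in the same order. The 2 lower sites from MII to 1-cell became 1 at a coverage of at least 100 and 0 with Bonferroni, divided or thinned reads. These settings leave fewer reads or sites. The median difference from MII to 1-cell was 5.38 points at a coverage of at least 100. The difference of class medians (serine/threonine minus tyrosine) was rated as kept in each setting. The range for this rating was wide, since it was taken between opposite ends of the class intervals, and it allowed a change of sign. At a coverage of at least 50 and 100 it was 3.82 and 4.76 points in MII and 3.87 and 9.10 points in 1-cell, but it turned negative in 1-cell at a level of at least 20% (-4.57 points) or thinned (-5 points) and in MII at a level of at least 20% (-3.56 points). Of the recomputed tests of named sites 46 kept the call, 34 lost it and 0 turned direction. These sites were chosen with at least 100 reads in both libraries, so the coverage minimums could hardly drop them. All 16 tests kept the call at each of these minimums. In the other settings 9 of 16 kept it with Bonferroni adjustment, 4 with reads divided by 5 and 1 when thinned. No paired analysis was possible because each stage has 1 library.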
